A study of Drosophila melanogaster with 4 samples.

Results

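The fly genome is not read equally well everywhere. In Drosophila melanogaster the DNA around the centromeres, most of the Y chromosome and much of chromosome 4 are heterochromatin, which is compact, poor in genes and filled with transposable elements, satellite DNA and the tandem copies of the ribosomal RNA genes. Release 5 of the FlyBase assembly keeps the assembled parts of this DNA apart from the chromosome arms: sequences such as 2RHet, 3LHet and 3RHet hold heterochromatin assigned to an arm, U holds scaffolds with no assigned place, and Uextra holds further scaffolds, mostly small ones. Peaks of Abd-B, the posterior Hox transcription factor, that were called on 2RHet, 3LHet, 3RHet, U or Uextra are described here. They were chosen by the sequence name alone and number 291 of the 2949 peaks in the deposited list, or 9.87%. Uextra carried 221 of them, U 41, 2RHet 15, 3RHet 9 and 3LHet 5.

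The list comes from a ChIP-seq study of larvae at the wandering L3 stage, with 2 ChIP libraries and 2 input libraries. All 4 libraries are labelled with the strain Abd-B-GFP, the genotype w; PBac{y[+]-attP-3B}VK00037, a sex given as unknown, and a transgene that spans the genomic coding part of Abd-B and carries GFP where its stop codon was. The input libraries therefore carry the same transgene as the ChIP libraries, which were made with a polyclonal rabbit antibody to GFP. The fly stock named in the collection protocol, y; bw cn sp, is another one, and whole larvae were the material, so no tissue can be told apart. The titles of all 4 libraries, input included, also carry the term vMock, which the labels do not explain. What served as control for the peak calls is not stated there. The deposited list gives each peak a position and 1 score and gives no value per library. Replicate error, depth and enrichment over input are thus unknown, no comparison between ChIP and input was possible, and peaks of 1 list are not replicates, so the classes are set side by side with no test. Positions are on FlyBase release 5. The score is the authors' own and its scale is not named, so it is used only to rank and describe peaks within the list.

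The 3 kinds of sequence differed in what their peaks looked like. Uextra peaks were mostly single and high in score, and few were wide. U held the extremes, in both width and score. Het peaks (those on 2RHet, 3LHet and 3RHet) were wider than most. They were in short runs about as often as arm peaks although they were sparser, several of them as 2 peaks a few kilobases apart.

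Uextra peaks had a median width of 361 bp, with quartiles at 291 and 442 bp. Their widths ran from 200 to 1057 bp, so that 1 of 221 was wider than 1 kb. U peaks had a median of 418 bp and quartiles at 304 and 745 bp, and 7 of 41 were wider than 1 kb. Het peaks had a median of 520 bp and quartiles at 336 and 598 bp, with 1 of 29 above 1 kb. For reference, the 2656 arm peaks (those of 2L, 2R, 3L, 3R, X and 4) had a median of 343 bp and quartiles at 258 and 487 bp, and 2.41% of them were wider than 1 kb. The median of each of the 3 classes was thus above that of the arms, and 97 of 221 Uextra peaks were narrower than it. The middle of the Uextra distribution was tighter than that of the arms, and the upper end of the U distribution was longer.

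Scores were ordered differently from widths. The median score was 30.9 on Uextra (quartiles 21.3 and 54.7), 23.7 on U (13.5 and 48.5) and 21.7 on Het (12.7 and 39.6), where the arms had quartiles of 10.4 and 20.1. The interquartile ranges of the 3 classes overlapped widely, and U and Het lay close to each other. A score above 22.4, the upper quartile of the whole list, was reached by 158 of 221 Uextra peaks (71.5%), 23 of 41 U peaks (56.1%) and 13 of 29 Het peaks (44.8%), against 20.4% of arm peaks. Among the Het sequences the medians were 21.7 on 2RHet, 18.7 on 3LHet and 18.0 on 3RHet, from 15, 5 and 9 peaks.

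**Figure D1:**
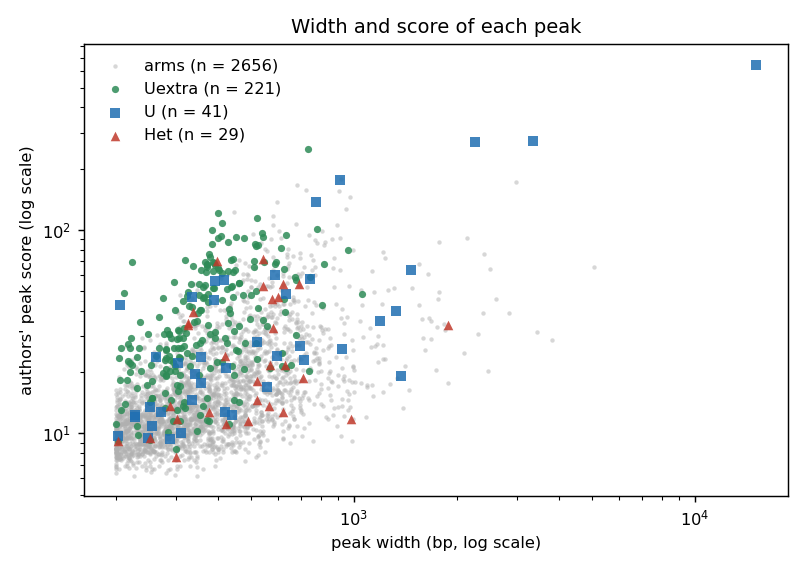
Width (bp, log scale) and authors' score (log scale) of each peak, with 1 point per peak, for Uextra, U, Het and the chromosome arms. Uextra points sit above most arm points of the same width, 4 member peaks exceed the highest arm score of 177, 3 of them on U, and Het points stay at or below 72.1.

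Wide peaks tend to have high scores, so scores were compared within classes of width. Uextra peaks stood above the median arm peak of their own width class in 202 of 221 cases (91.4%) and above its upper quartile in 183 (82.8%), where arm peaks by construction give 49.9% and 25.0%. For U the figures were 31 of 41 (75.6%) and 19 of 41 (46.3%). For Het they were 14 of 29 (48.3%) and 12 of 29 (41.4%), so Het peaks were split about evenly around the arm median while their upper part was high.

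The distance between Uextra and the arms was present at every width with Uextra peaks. From 200 to 249 bp the median score was 21.9 on Uextra (n = 26) and 10.4 on the arms (n = 581). From 350 to 399 bp it was 51.6 (n = 43) and 14.6 (n = 277), a ratio of 3.54, the highest of the 8 width classes that held Uextra peaks. The lowest ratio was 1.96, from 250 to 299 bp, where Uextra had a median of 22.5 (n = 37). The 2 widest of these classes, from 600 to 799 and from 800 to 1199 bp, held only 16 and 4 Uextra peaks. In the 2 narrowest classes U peaks had medians of 12.1 and 12.7, each from 5 peaks, near the 10.4 and 11.5 of the arms. From 200 to 249 bp, however, 2 of the 5 U peaks were above the arm upper quartile. The highest scored 42.52, above the arm maximum of 29.3 in that class. The 6 U peaks of 1200 bp or more had a median of 167, against 35.8 for 45 such arm peaks.

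**Figure D2:**
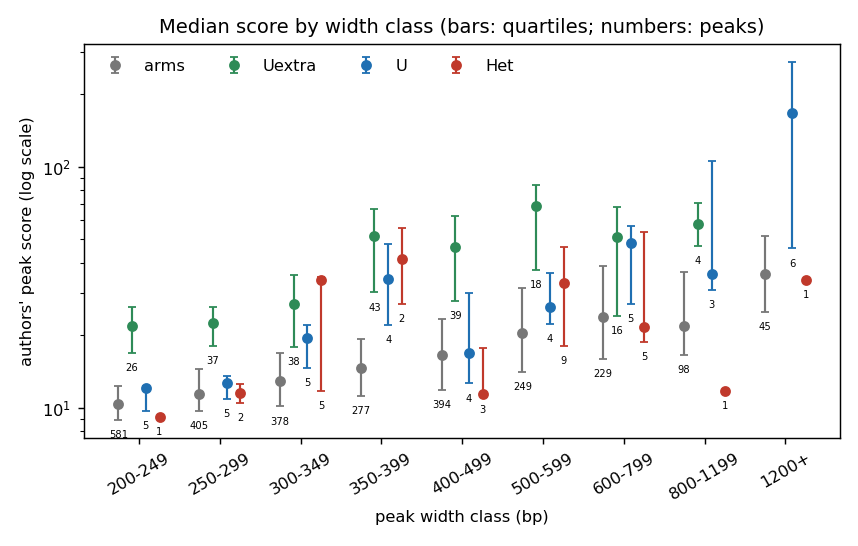
Median authors' score (log scale) in 9 classes of peak width (bp), with bars from the lower to the upper quartile and the number of peaks printed under each bar. Uextra medians are 1.96 to 3.54 times those of the arms, while U and Het medians rest on 1 to 9 peaks per class.

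Of the 11 member peaks with a score above 100, 5 lay on U and 6 on Uextra, and none on Het. The highest was the U peak from 5288350 to 5303526, which spanned 15177 bp and scored 648.84. It alone made up 37.0% of all bases covered by peaks on U. Its width was 173 bp more than that of the main mitochondrial peak (15004 bp, score 657.49). Whether the 2 share sequence was not tested, since no release 5 genome was used here.

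The next were also on U. A peak from 4022428 to 4025781 was 3354 bp wide and scored 273.88, and one from 7542909 to 7545168 was 2260 bp wide and scored 271.19. The fifth widest member, from 4015823 to 4017289, had 1467 bp and a score of 63.34 and lay 5138 bp before the first of these. On Uextra the strongest peak ran from 26549744 to 26550475, with 732 bp and a score of 250.81. With the peak of 15177 bp, the 3 of these that scored above 250 were the members that exceeded the highest arm score of 177. A U peak from 7729914 to 7730824, 911 bp wide, scored 175.70, and one from 7457749 to 7458520, 772 bp wide, scored 136.84. The remaining members of the 10 highest were Uextra peaks of 398 to 778 bp with scores from 101.33 to 121.03.

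Het reached lower. The highest score on 3RHet was 72.08, at 1347614 to 1348154. On 3LHet it was 54.45, at 1986927 to 1987616, and on 2RHet 52.83, at 680786 to 681325. The widest Het peak, from 685819 to 687711 on 2RHet, spanned 1893 bp and scored 33.97. The widest on 3LHet measured 710 bp (1285250 to 1285959, score 18.72) and the widest on 3RHet 619 bp (55074 to 55692, score 53.91). The widest Uextra peak, from 747503 to 748559, spanned 1057 bp and scored 48.28.

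Peaks were sparse on all 3 kinds of sequence. Up to the end of the last peak, Uextra held 7.62 peaks per Mb, U 4.09 and Het 3.63, against 22.1 on the arms. Peaks covered 0.294%, 0.409% and 0.195% of that length, against 0.925% on the arms. Without its widest peak, U was covered to 0.258%. These lengths count every base of the file, unknown bases included, and scaffolds on U and Uextra are joined in file order, so a gap there is a distance in the file and need not be a distance on a chromosome.

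Spacing separated Uextra from the others. Only 14 of 220 gaps between neighbouring Uextra peaks (6.36%) were 5 kb or shorter, against 12 of 40 on U, 10 of 26 on Het (38.5%) and 32.7% on the arms. When peaks with gaps of at most 5 kb were joined into runs, 195 of 221 Uextra peaks stood alone. On U 20 of 41 peaks (48.8%) were in runs, and on Het 17 of 29 (58.6%), against 49.9% on the arms. The Het sequences differed, with 11 of 15 peaks in runs on 2RHet (73.3%), 4 of 5 on 3LHet (80.0%) and 2 of 9 on 3RHet (22.2%). These shares were not adjusted for the higher density of arm peaks. Uextra and U had nearly the same median gap, 66.4 and 72.0 kb but differed on both sides of it, with upper quartiles of 153 and 316 kb. On Het the median was 122 kb, and no gap fell between 5.41 and 34.8 kb: peaks there were either close neighbours or far apart.

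**Figure D3:**
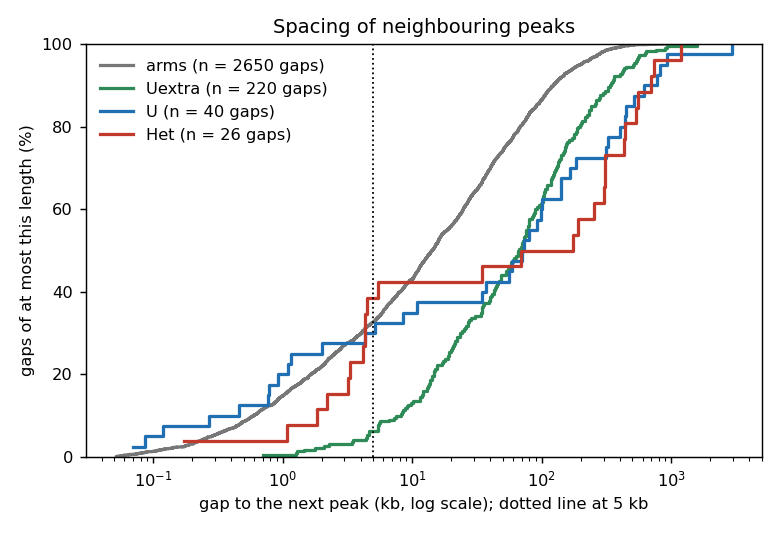
Cumulative share (%) of gaps between neighbouring peaks against gap length (kb, log scale) for the arms, Uextra, U and Het, with a dotted line at 5 kb. At the dotted line the arms read 32.7%, Uextra 6.36% and Het 38.5%, with U close to the arms, and the Het curve is flat from 5.41 to 34.8 kb.

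Runs were short. The longest held 4 peaks on 2RHet and on U, 3 on Uextra, and 2 on 3LHet and 3RHet, where the arms reached 55. The 2RHet run from 680786 to 692149 held peaks of 540, 1893, 629 and 326 bp with scores of 52.83, 33.97, 21.71 and 34.86. The U run from 107602 to 112476 held 4 weaker peaks, with scores from 10.88 to 20.95. Uextra had 2 runs of 3 peaks. In the run from 28717150 to 28723609 the widths were almost equal, from 222 to 230 bp, with scores from 16.70 to 29.49. In the run from 28853868 to 28859662 widths ran from 286 to 430 bp and scores from 24.05 to 52.05. 3LHet had 2 runs of 2 peaks, from 1986927 to 1992148 and from 2245181 to 2247083, and 3RHet 1, from 1342911 to 1348154.

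Steps within runs varied in length. Over the 7 member runs of 3 or more peaks, the coefficient of variation of the start-to-start distance ranged from 0.29 to 0.74 with a median of 0.41, and the arm runs had a median of 0.51. With 2 or 3 steps each these coefficients are rough, and runs of 2 peaks have none. No limit for even steps was set, so whether any run is a regular tandem array was not tested.

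Along Uextra the peaks were unevenly spread. The window from 28 to 29 Mb held 45 of the 221 peaks (20.4%), while the other 28 full windows of 1 Mb held 0 to 14, with a median of 5.5. Neighbours in this window were 15.4 kb apart in the median, against 89.2 kb elsewhere on Uextra. Peaks there were somewhat narrower, with a median of 316 bp against 370.5 bp. Their scores were alike, with a median of 33.0 (quartiles 23.5 and 58.7) against 30.8 (20.9 and 53.1). U showed no such end: its peaks fell in 8 of 10 equal parts of its extent, with 1 to 7 peaks each and none in the other 2.

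**Figure D4:**
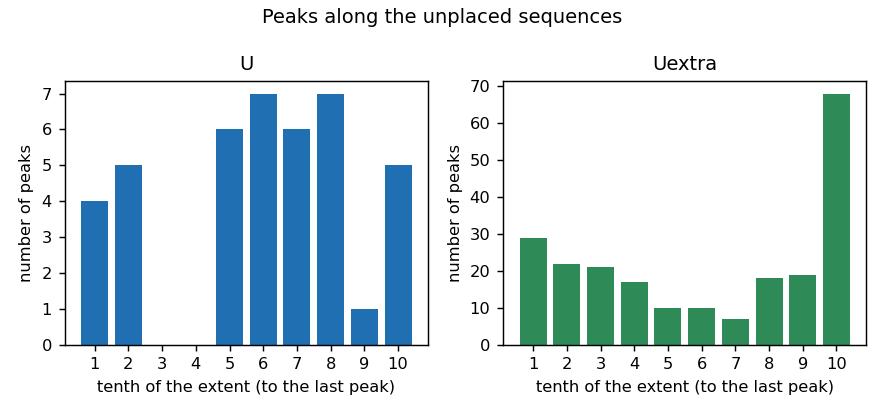
Number of peaks in each of 10 equal parts of the extent (up to the end of the last peak) of U and Uextra. The last part of Uextra holds 68 peaks and each other part 7 to 29, while U has 0 to 7 peaks per part.

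Copies of a repeated element can take up alike numbers of reads when an aligner spreads reads among them, so peaks of alike width and score were sought. The handling of reads that fit several places is not stated in the labels or the file header. With widths and scores each within 2% of the larger value, 30 pairs were found among the 291 members. That is 0.0711% of the possible pairs, against 0.101% on the arms. Taken over all scores and all 5 sequences, near-equal peaks were thus not more frequent than on the arms. Het and U had 0 such pairs within themselves, from 406 and 820 possible pairs. Uextra had 25, or 0.103%. The other 5 joined different sequences. No near-equal pair consisted of next neighbours, and the 25 on Uextra lay 0.443 to 22.3 Mb apart.

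The pairs were spread unevenly over scores. Arm peaks crowd at low scores, where equal values are common, so the pairs were also counted within ranges of score, a choice made after the pairs had been seen. Among peaks scoring from 50 to 100, Uextra had 11 near-equal pairs among 59 peaks, or 0.643% of the possible pairs, and the arms 7 among 97 peaks, or 0.150%. From 30 to 50 the figures were 0.392% and 0.263% (5 and 56 pairs). From 20 to 30 the order turned, with 0.273% and 0.319% (5 and 195 pairs). Below 20 Uextra was again above the arms, with 0.423% and 0.166% (4 and 3279 pairs), so the order did not follow the score. The range above 100 held 0 pairs on both. For all members the rates were 0.469% from 50 to 100 and 0.259% below 20, above those of the arms. Between these ranges members were below the arms, with 0.248% from 30 to 50 and 0.266% from 20 to 30. The widths of Uextra peaks also span a smaller range than those of the arms, which by itself makes equal widths more common, and its part in these rates was not tested.

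The near-equal sets of more than 2 peaks were on Uextra. A set of 4 had widths of 371, 371, 366 and 371 bp and scores of 68.09, 65.67, 69.13 and 67.00, with starts at 27371469, 28172170, 28501716 and 28615449. A set of 3 had widths of 514, 513 and 521 bp and scores of 82.82, 85.58 and 84.12, with starts at 25110904, 27712116 and 28588123. Both sets were linked in chains, so that not each peak is within 2% of each other. Outside them, the highest-scoring pair had widths of 442 and 436 bp and scores of 71.62 and 71.42 (starts 14420154 and 19221523). The next had 386 and 389 bp with scores of 69.48 and 68.67 (starts 7598829 and 28137885), and another had 401 and 399 bp with scores of 63.80 and 64.84 (starts 7127020 and 14833848). A further pair had 461 and 459 bp with scores of 54.70 and 54.74 (starts 14004971 and 28116135), and a pair of 437 and 436 bp scored 53.04 and 52.34 (starts 9343435 and 11344557).

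Identical scores alone were also counted. A score shared with another member to the second decimal was found for 94 of 291 members (32.3%) and, counted in the same way among themselves, for 66.7% of arm peaks. Among peaks scoring 30 or more the shares were 13.2% and 13.6%. The larger number of arm peaks makes a shared value more likely there. These shares therefore cannot tell whether identical scores mark these sequences.

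The distance between neighbours was described as well. Of the 26 gaps on Het, 7 (26.9%) measured 3 to 6 kb, against 5.00% on U, 5.45% on Uextra and 8.42% on the arms. Of these 7 Het gaps, 5 lay on 2RHet, 1 on 3LHet and 1 on 3RHet. Over all members it was 21 of 286 gaps (7.34%), close to the arms. The range was set after the Het gaps had been seen. In 4 of the 7 Het cases both peaks scored above 30, as in both U cases and 4 of 12 on Uextra, but in 4.48% of 223 on the arms. High scores were also more frequent among all peaks of these sequences, those in doublets included, since 144 of 291 members and 317 of 2656 arm peaks scored 30 or more.

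A pair of these doublets had nearly the same dimensions on different sequences. On 2RHet, peaks of 336 and 575 bp (3269481 to 3269816 and 3274113 to 3274687) were separated by 4296 bp and scored 39.58 and 45.53. On U, peaks of 335 and 588 bp (1077242 to 1077576 and 1081872 to 1082459) were separated by 4295 bp and scored 46.55 and 59.95. Gap and first width thus differed by 1 bp each, while both scores were higher on U. A gap of about this length also separated doublets whose widths differed more. On 3RHet, peaks of 396 and 541 bp (1342911 to 1343306 and 1347614 to 1348154) were separated by 4307 bp and scored 70.30 and 72.08. On 3LHet the wide peak came first, with 690 and 325 bp, a gap of 4207 bp and scores of 54.45 and 33.94. These 4 doublets were named after their values had been seen.

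**Figure D5:**
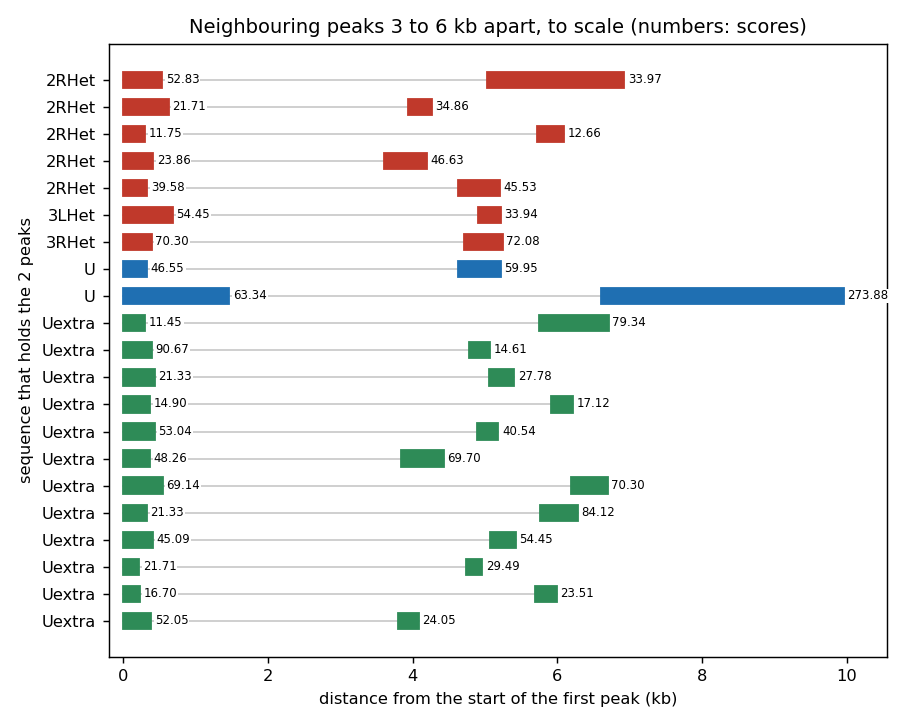
The 21 doublets of neighbouring member peaks that lie 3 to 6 kb apart, drawn to scale from the start of the first peak (kb), with scores beside the peaks and 1 line per doublet. The 2RHet doublet scoring 39.58 and 45.53, the 3RHet doublet scoring 70.30 and 72.08 and the U doublet scoring 46.55 and 59.95 have gaps of 4296, 4307 and 4295 bp.

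To see how often such likeness occurs, all neighbours up to 10 kb apart were compared for gap and both widths, in either order, each within 5%. The 54 member doublets gave 2 matches in 1431 possible, or 0.140%, and the 1141 arm doublets 148 matches, or 0.0228%. The first match was that of 2RHet and U above, the one that prompted the comparison. The second joined a 2RHet doublet of 302 and 375 bp (start 1120017, gap 5410 bp, scores 11.75 and 12.66) to a Uextra doublet of 371 and 309 bp in reverse order (start 7410071, gap 5539 bp, scores 14.90 and 17.12). Within 10% there were 4 matches, or 0.280%, against 0.191% on the arms, and within 2% there were 0, against 6 (9.23e-04%). The member rates rest on 4 matches at most. Gaps of 3 to 6 kb made up 38.9% of the member gaps up to 10 kb and 19.5% of those on the arms. Gaps that crowd in a range match more easily, and the part of this in the rates was not tested. The scores 11.75 and 12.66, in this order, also belonged to another 2RHet doublet, from 1317993 to 1321430, whose widths of 977 and 619 bp and gap of 1842 bp were different. No release 5 sequence was used here, so whether alike peaks or doublets share their DNA was not tested.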

How the data were processed

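The authors deposited 1 peak list for the whole series, a GFF version 3 table on FlyBase release 5 with MACS in its source field, per the file headers. BWA, MACS2, the build BDGP5 and CASAVA (1.7.0.2, also 1.7.0.3) appear in the submitters' processing notes with no roles or parameters. The control library, the pooling of replicates and the handling of reads that fit several places are not given in the sources used here. Each deposited row holds a start, an end and a score from the authors' caller, given to 0.01 with no scale named. The lowest start was 0, so 1 was added to starts. Depth is unknown. No test was made, and 95% binomial or order-statistic intervals served only to judge the alternatives: peaks of 1 list, which can be copies of repeated DNA, are not replicates.

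Members are all peaks on 2RHet, 3LHet, 3RHet, U and Uextra. The extent of a sequence is the end of its last peak. Runs join peaks with gaps of at most 5 kb. Near-equal peaks have widths and scores each within 2% of the larger value. The rates on the arms serve as background. Peaks were named by rule: the 10 highest scores, the 5 widest, the highest and the widest of each sequence, the longest runs, near-equal sets of 3 or more and the 10 highest-scoring near-equal pairs. Other named peaks were chosen after their values were seen. Members, measures and rules were chosen with earlier results of these data known. The search for runs, near-equal pairs and doublets was checked on simulated lists with planted peaks, exactly equal and evenly spaced, all of which were found. Inexact copies and matches in crowded lists were not simulated. Alternatives were the highest-scoring 1474 and 737 peaks, merging of peaks under 1 kb apart, and other gaps and tolerances. Python 3.11.15, numpy 2.4.6, pandas 2.3.3, scipy 1.17.1, networkx and matplotlib 3.10.9 were used. The only annotation used here was on release 6 and no position was converted, so no gene or sequence is given.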

Additional observations from a re-analysis of the deposited data

How the results depend on the processing

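No paired analysis was possible because peaks carry 1 score for the series and none for a library, and no replicate could be left out. Of 51 alternatives, 31 kept a value within 1.5 times a count or within the binomial or order-statistic interval of a share or median, and 20 moved it. These intervals take peaks as independent and are wider for smaller classes, so the tally depends on class size. With the 1474 highest-scoring peaks of the list, 18 of the 29 Het peaks were left. The median scores were then 34.4 on Het, 37.9 on U and 34.4 on Uextra, so Uextra was no longer the highest. Each of these medians was nevertheless counted as kept. With the 737 highest-scoring, 13 Het, 23 U and 158 Uextra peaks were left, with median scores of 45.5, 46.6 and 45.3, where again U was the highest and the classes lay close. Median widths were then 694 bp on U and 380.5 bp on Uextra. These sets were drawn on the score itself. With gaps of at most 2 kb the longest Het run was 2 peaks, and the share of peaks in runs was 20.7% on Het and 4.52% on Uextra. Gaps this short made up 11.5% of those on Het and 22.0% of those on the arms. The order of Het and arms at 5 kb was thus turned at 2 kb. With gaps of at most 10 kb the share of peaks in runs was 24.4% on Uextra. Near-equal pairs among members numbered 8 within 1% and 174 within 5%, or 0.0190% and 0.412% of the possible pairs, against 0.0287% and 0.624% on the arms, so members stayed below the arms at each tolerance. The alternatives on the fullest Mb of Uextra, and those on doublets and score ranges, were chosen after seeing the data. Without that Mb the Uextra median score was 30.8. The base composition and identity of named peaks were not computed, as no release 5 genome was used.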
